A study of Sus scrofa with 2 samples.

Results

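Pericytes, the contractile support cells wrapped around capillaries, were described in single-cell RNA sequencing of the longissimus dorsi, the long muscle of the back, from piglets of the Guangdong small-eared spotted breed (GDSS) and from Yorkshire piglets. They were chosen by a rule on raw counts of unique molecular identifiers (UMIs): barcodes with at least 500 genes detected, at least 2 UMIs of RGS5, 0 of MYH11, fewer than 2 over the endothelial genes PECAM1, CLDN5 and GPIHBP1, 0 over the satellite cell genes PAX7 and MYF5, and fewer than 20 UMIs per 10000 over the stromal genes DCN and LUM. The rule found 437 cells among the 25851 barcodes with at least 500 genes. Of these, 167 were among 11533 GDSS barcodes, or 1.45% (95% exact Clopper-Pearson interval 1.24 to 1.68), and 270 among 14318 Yorkshire barcodes, or 1.89% (1.67 to 2.12). They were set beside the barcodes with at least 2 UMIs of MYH11, the smooth muscle myosin heavy chain, which numbered 146 in GDSS (1.27%) and 630 in Yorkshire (4.40%), and beside the 11220 GDSS and 13418 Yorkshire barcodes that were neither. The measured values of the 9 genes of the rule chose the cells, so these genes are no findings, and every contrast of pericytes with other cells is given as a description without a test.

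Pericytes share the basement membrane of the capillary endothelium, are recruited by endothelial PDGF-B through the receptor PDGFRB, and carry the Notch receptor NOTCH3. Together with the vascular smooth muscle cells of larger vessels they are called mural cells, and both kinds grade into each other along the vascular tree, with pericytes holding less of the contractile apparatus. In skeletal muscle they help to set capillary tone and stability, and they have been studied as a source of myogenic and adipogenic cells.

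Each breed was represented by 1 library, so breed, animal, preparation and library cannot be told apart. The labels describe the material as stem cells of the vessels within the muscle, from 1 g of muscle per piglet, after lysis of red cells and removal of dead cells with magnetic beads, and name no genetic change or treatment. Nothing in the sources used here says how many piglets there were, of which sex, or what "P0" in the titles stands for. The pericytes held 322299 UMIs in GDSS and 733492 in Yorkshire. Their median depth was 1627 UMIs and 812 genes per cell in GDSS and 2314.5 UMIs and 1069.5 genes in Yorkshire, lower than the 4227 and 3524.5 UMIs of MYH11 cells and the 2901 and 3037 UMIs of the other cells. The libraries shared 47 barcodes, of which 0 were pericytes in GDSS and 2 in Yorkshire. A doublet score of at least 0.3 was reached by 0 GDSS and 1 Yorkshire pericytes. More than 10% of the UMIs were mitochondrial in 10.2% of the GDSS and 17.0% of the Yorkshire pericytes, against 3.43% and 2.21% of the other cells. Levels are UMIs of a gene per 1000000 UMIs of the summed cells of a class, written UPM, with GDSS before Yorkshire, and their intervals cover counting error only.

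The markers went with the label. RGS5, a regulator of G protein signalling that is the usual pericyte marker and is used by the rule, had 2 UMIs in the lowest, 4 in the median and 21 in the highest GDSS pericyte, and 2, 6 and 32 in Yorkshire. FHL5, a LIM-domain coactivator of CREB-family factors in mural cells, stood at 899.8 and 853 UPM in GDSS and Yorkshire pericytes, 386 and 666 in MYH11 cells and 11.9 and 18.05 in the other cells. PDGFRB stood at 1033 and 586 UPM in pericytes, 363 and 332 in MYH11 cells and 87.1 and 32.7 in the others. NOTCH3 stood at 344 and 352 UPM in pericytes, which was close to the 314 and 419 of MYH11 cells and above the 17.1 and 41.4 of the others. ENPEP, the aminopeptidase A that cuts angiotensin II, was the marker with the widest distance between pericytes and MYH11 cells. It stood at 192 and 49.1 UPM in pericytes, 4.55 and 2.64 in MYH11 cells and 42.3 and 7.86 in the others. With 36 UMIs in Yorkshire pericytes, ENPEP had too few there to be counted in the later comparison with MYH11 cells. After every cell was thinned to 1500 UMIs, 73 GDSS and 47 Yorkshire pericytes were left out. A UMI of FHL5 was then found in 65.96% and 65.5% of GDSS and Yorkshire pericytes. It was found in 0.11% and 0.316% of stromal cells (DCN plus LUM of at least 20 per 10000), which should lack it. These stromal cells were also required to have fewer than 2 UMIs of RGS5 and of MYH11. Their low FHL5 share was thus fixed in part by the choice of cells. Without thinning the FHL5 shares were 74.8% and 84.1% in pericytes.

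The cells were not free of smooth muscle genes other than MYH11. ACTA2, smooth muscle actin, was found after thinning in 86.2% and 83.9% of GDSS and Yorkshire pericytes, and unthinned in 89.2% and 87.4%. After thinning it was found in 0.929% and 3.47% of stromal and 9.84% and 8.89% of satellite cells. The satellite cells had at least 2 UMIs over PAX7 and MYF5 and, like the stromal cells, fewer than 2 of RGS5 and of MYH11. That choice fixed the low ACTA2 shares in part. The label pericyte thus covers cells of which most carried ACTA2 transcripts and that had 0 UMIs of MYH11 at a median depth below that of MYH11 cells. Markers of other cell types were summed in each class. Over 9 stromal progenitor markers outside the rule, the summed level was 1105 UPM in GDSS and 1321 in Yorkshire pericytes, which was 4.95% and 15.7% of the level in the other cells, and 4 and 2 of the markers were at 0. The 10 macrophage markers summed to 80.7 and 39.5 UPM, with 6 and 4 at 0, and the 4 erythroid markers were at 0 in both libraries. The 9 endothelial markers outside the rule summed to 323 and 254 UPM in pericytes, of which the junction protein ESAM, also made by mural cells, gave 171 and 134. The endothelial sum was 242% and 49.8% of the level in the other cells. The summed satellite, myofibre, glial, lymphocyte and neutrophil, and tenocyte markers outside the rule lay between 34.1 and 521 UPM in GDSS and between 15 and 500.3 in Yorkshire pericytes. Set against the level in the other cells, the myofibre sum was 127% in GDSS and 42.6% in Yorkshire, the satellite sum 18.7% in GDSS and 63.8% in Yorkshire and the glial sum 62.8% in GDSS and 7.33% in Yorkshire. The lymphocyte and neutrophil sum was 78.4% of that level in GDSS and 79.6% in Yorkshire, and the tenocyte sum 3.94% in GDSS and 3.26% in Yorkshire. Of the 7 lymphocyte and neutrophil markers summed, 6 were at 0 in both libraries. That sum was CD79A alone, with 22 UMIs in 21 GDSS pericytes and 132 in 95 Yorkshire pericytes. DES, which is also a smooth muscle gene, gave most of the satellite sum, with 48 UMIs in GDSS and 206 in Yorkshire pericytes. APOE gave 14 and 134. The skeletal actin gene ACTA1 gave most of the GDSS myofibre sum, with 50 of its 101 UMIs in 1 cell. MYLPF, another myofibre marker, had 110 UMIs in Yorkshire, 70 of them in 1 cell. The part of RNA from other cells in the results was not tested.

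At the edge of the rule, 48 GDSS and 34 Yorkshire pericytes had exactly 2 RGS5 UMIs, and 37 and 63 further barcodes met every other condition with exactly 1. FHL5 was detected in 72.9% of the GDSS cells with 2 and 70.3% of those with 1, and in 73.5% of the Yorkshire cells with 2 and 34.9% of those with 1. PDGFRB gave 77.1% and 73.0% of these cells in GDSS, and 73.5% and 28.6% in Yorkshire. Among barcodes with 0 RGS5 UMIs, FHL5 was found in 1.82% and 2.16%. At the MYH11 edge, 20 GDSS and 70 Yorkshire barcodes met every other condition with exactly 1 MYH11 UMI, and 36 and 307 had at least 2.

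**Figure D1:**
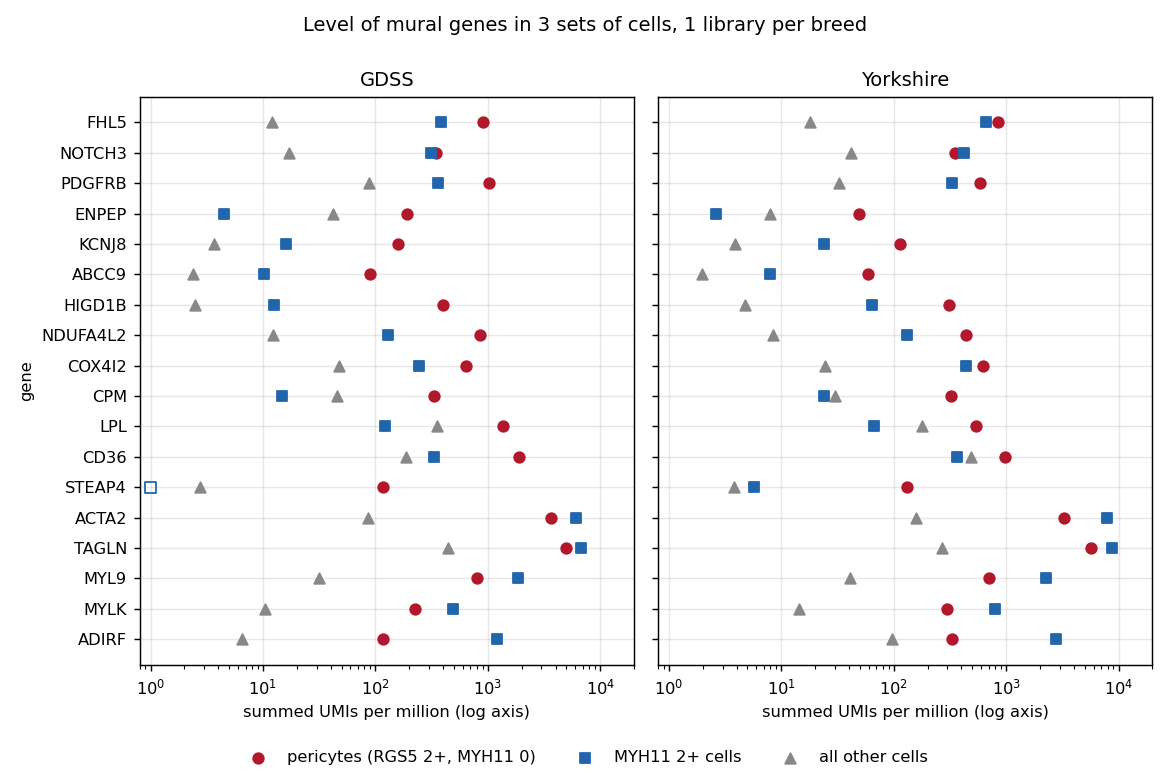
Levels of pericyte and contractile genes in UPM (log axis) in pericytes, MYH11 cells and all other cells, 1 panel per library and 1 point per class. ENPEP, KCNJ8, HIGD1B and LPL lie higher in pericytes than in MYH11 cells, MYL9 and ADIRF lie lower, and an open square marks 0 UMIs.

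The comparison of pericytes with MYH11 cells asked what separates these mural populations of this muscle besides MYH11. Genes were compared where both sums gave enough UMIs (at least 50 together and a mean level that gives at least 10 in the smaller sum), and a gene was called where it was at least 2-fold apart in the same direction in both libraries. Of 3323 genes measured, 45 were higher in pericytes (1.35%) and 158 were lower (4.75%), with a median log2 ratio of −0.10 over all of them. The counting interval left out equality in both libraries for all 45 higher and all 158 lower genes. MYH11 cells were not held to the exclusions of the rule. Where only the 95 GDSS and 521 Yorkshire MYH11 cells that met them were used, fewer genes were measured. Of these 1786 genes, 48 were higher and 77 lower. The lower genes PLAT, SOX18, CYYR1, PTPRB and S1PR1, known from endothelium, were at 0 to 16.3 UPM in those MYH11 cells.

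Genes of lipid uptake and membrane enzymes led the higher genes. The gene CPM, for the membrane-bound carboxypeptidase M, stood at 335 and 324 UPM in GDSS and Yorkshire pericytes, against 14.8 and 23.8 in MYH11 cells, a ratio of 22.7-fold (12.7 to 43.97) in GDSS and 13.6-fold (10.3 to 18.3) in Yorkshire. LPL, the lipoprotein lipase that frees fatty acids from circulating triglycerides at the capillary wall, stood at 1359 and 539.9 UPM in pericytes, against 122 and 66.9 in MYH11 cells and 354 and 179 in the other cells. The ratio to MYH11 cells was 11.2-fold (9.03 to 13.9) in GDSS and 8.07-fold (6.75 to 9.69) in Yorkshire. LPL was not confined to mural cells: after thinning it was found in 57.4% and 30.5% of GDSS and Yorkshire pericytes and 40.4% and 45.2% of stromal cells. CD36, the fatty acid translocase, stood at 1905 and 968 UPM in pericytes and 335 and 363 in MYH11 cells. ANGPTL4, an inhibitor of LPL, stood at 493 and 254 UPM in pericytes, 143 and 116 in MYH11 cells and 589 and 376 in the others. ELOVL6, which lengthens fatty acids, stood at 149 and 53.2 UPM in pericytes and 7.96 and 13.6 in MYH11 cells. Against MYH11 cells that met the exclusions these differences were wider, with LPL at 51.8 and 36.6 and CD36 at 171 and 282 UPM in those cells. With cells of at least 1000 genes the log2 ratio of pericytes over MYH11 cells was 2.45 for LPL, beside 3.25 with all cells, and 3.35 for CPM, beside 4.14. Of the 8 measured genes of the adipogenic and lipid list, LPL and CD36 were called higher and 0 lower, with a median log2 ratio of 0.22.

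The pericyte identity list had 16 genes measured in this comparison, of which 3 were higher, 0 lower, and the median log2 ratio was 0.80. HIGD1B, a hypoxia-inducible domain protein of mitochondria, stood at 397 and 312 UPM in pericytes and 12.5 and 64.6 in MYH11 cells. NDUFA4L2, a relative of a cytochrome oxidase subunit that is induced by hypoxia, stood at 850.1 and 436 UPM in pericytes, against 131 and 132 in MYH11 cells. KCNJ8 and ABCC9 encode the pore (Kir6.1) and the sulphonylurea receptor (SUR2) of the vascular ATP-sensitive potassium channel. KCNJ8 stood at 158 and 115 UPM in pericytes and 15.9 and 23.8 in MYH11 cells, a ratio of 9.95-fold (5.42 to 19.5) in GDSS and 4.81-fold (3.43 to 6.78) in Yorkshire. ABCC9, with too few UMIs to be counted in the smaller GDSS sum, stood at 89.98 and 58.6 UPM in pericytes, against 10.2 and 7.93 in MYH11 cells. STEAP4, a metalloreductase, stood at 118 and 132 UPM in pericytes. It had 0 UMIs in the GDSS MYH11 cells, which allows up to 3.41 UPM, and 5.67 UPM in Yorkshire MYH11 cells. With 38 UMIs in GDSS pericytes, STEAP4 also had too few in GDSS to be counted. COX4I2, the vascular and lung isoform of a cytochrome oxidase subunit, differed less, with 645 and 628 UPM in pericytes, against 247 and 439 in MYH11 cells. FHL5, NOTCH3, PDGFRB, GUCY1A1 and GUCY1B1 of the same list were not called.

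Receptors and their regulators were split. Of 15 genes of G protein signalling measured, 4 were higher and 2 lower. AGTR1, the type 1 angiotensin II receptor, stood at 254 and 124 UPM in pericytes, 55.7 and 23.4 in MYH11 cells and 275 and 97.7 in the others. In MYH11 cells that met the exclusions AGTR1 stood at 3.05 and 14.6. With cells of at least 1000 genes the log2 ratio of pericytes over MYH11 cells was 1.64 for AGTR1, beside 2.298 with all cells. AVPR1A, the vasopressin receptor of vessels, stood at 155 and 149 in pericytes and 52.3 and 44.2 in MYH11 cells. RGS16, an RGS5 relative that also speeds the turn-off of G proteins, stood at 636 and 525 UPM in pericytes, against 308 and 231 in MYH11 cells. GNAI1, an inhibitory G protein subunit, stood at 118 and 113 UPM in pericytes, against 48.9 and 53.6 in MYH11 cells. Against MYH11 cells that met the exclusions, RGS16 at a log2 ratio of 0.73 and GNAI1 at 0.91 were less than 2-fold apart. The receptors CALCRL and NPY1R were lower than in all MYH11 cells, including those that did not meet the exclusions. CALCRL, for adrenomedullin and CGRP, stood at 18.6 and 8.18 UPM in pericytes and 54.6 and 40.4 in MYH11 cells. NPY1R, for neuropeptide Y, stood at 37.2 and 28.6 UPM in pericytes, against 75.01 and 112 in MYH11 cells. The endothelin receptors EDNRA and EDNRB were not called in this comparison. Among the other highest genes, REM1, a small GTPase that inhibits calcium channels, stood at 217 and 185 UPM in pericytes and 27.3 and 28.3 in MYH11 cells. TNFRSF21, a death receptor, stood at 428 and 234 UPM in pericytes, against 72.7 and 54.8 in MYH11 cells. FAM162B stood at 285 and 128 UPM in pericytes, against 9.09 and 17.4 in MYH11 cells. Its log2 ratio was 3.15 with cells of at least 1000 genes, beside 3.93 with all cells.

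Every called gene of the contractile apparatus was lower in pericytes. Of 21 genes measured, 0 were higher and 6 lower, with a median log2 ratio of −0.96, which was −1.58 against MYH11 cells that met the exclusions. MYL9, the regulatory myosin light chain, stood at 807 and 705 UPM in pericytes and 1868 and 2251 in MYH11 cells, 2.32-fold and 3.19-fold lower in GDSS and Yorkshire. MYLK, the kinase that starts contraction by phosphorylating it, stood at 226 and 299 UPM in pericytes, against 493 and 792 in MYH11 cells. FLNA, the actin crosslinker filamin A, stood at 478 and 431 UPM in pericytes, against 1224 and 1618 in MYH11 cells. CNN1, the calponin of mature smooth muscle, stood at 43.4 and 44.99 UPM in pericytes and 299 and 348 in MYH11 cells. ACTG2, enteric-type smooth muscle actin, stood at 62.1 and 32.7 UPM in pericytes, against 336 and 279.6 in MYH11 cells. ADIRF, an adipogenesis regulatory factor, stood at 118 and 329.9 UPM in pericytes, against 1196 and 2755 in MYH11 cells, 10.1-fold and 8.35-fold lower. ACTA2 was not called, at 3655 and 3271 UPM in pericytes and 6043 and 7886 in MYH11 cells, and neither was TAGLN, an actin-binding protein of smooth muscle, with 4936 and 5732 UPM in pericytes, against 6792 and 8686 in MYH11 cells. Against MYH11 cells that met the exclusions the distance was wider, with ACTA2 at 11609 and 10079 UPM and TAGLN at 12227 and 11015 UPM in GDSS and Yorkshire.

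Genes of the TGF-beta pathway and of the matrix were mostly lower where called. Of 16 genes of the TGF-beta and BMP list, 0 were higher and 6 lower (SMAD7, ENG, TGFBI, ID2, TGFB3 and INHBA). These counts use all MYH11 cells, which were not held to the endothelial and stromal exclusions. The part of the cells that failed them in this list was not tested. Against MYH11 cells that met the exclusions INHBA, an activin subunit, was less than 2-fold lower, at a log2 ratio of −0.82. TGFB3, a TGF-beta ligand, stood at 43.4 and 64.1 UPM in pericytes and 157 and 241 in MYH11 cells. ID2, an inhibitor of basic helix-loop-helix factors induced by BMP, stood at 89.98 and 94.1 UPM in pericytes, against 436 and 255 in MYH11 cells. CCN2, a matricellular target of TGF-beta and YAP, stood at 80.7 and 51.8 UPM in pericytes, against 350.1 and 227 in MYH11 cells. Of 16 interstitial matrix genes, 6 were lower and COL5A3, a minor fibrillar collagen chain, was the 1 that was higher, at 239 and 266 UPM in pericytes and 50.01 and 68.8 in MYH11 cells. The median of that list was −1.36, and −0.36 against MYH11 cells that met the exclusions on stromal genes. COL1A1, the main fibrillar collagen chain, stood at 155 and 274 UPM in pericytes, 1817 and 997 in all MYH11 cells and 652 and 382 in those that met the exclusions. In the PDGF, Notch and transcription factor lists 0 genes were called in either direction, of 7, 12 and 13 measured. Over all genes measured, 1.35% were higher and 4.75% lower, so 0 calls do not set lists of this size apart.

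**Figure D2:**
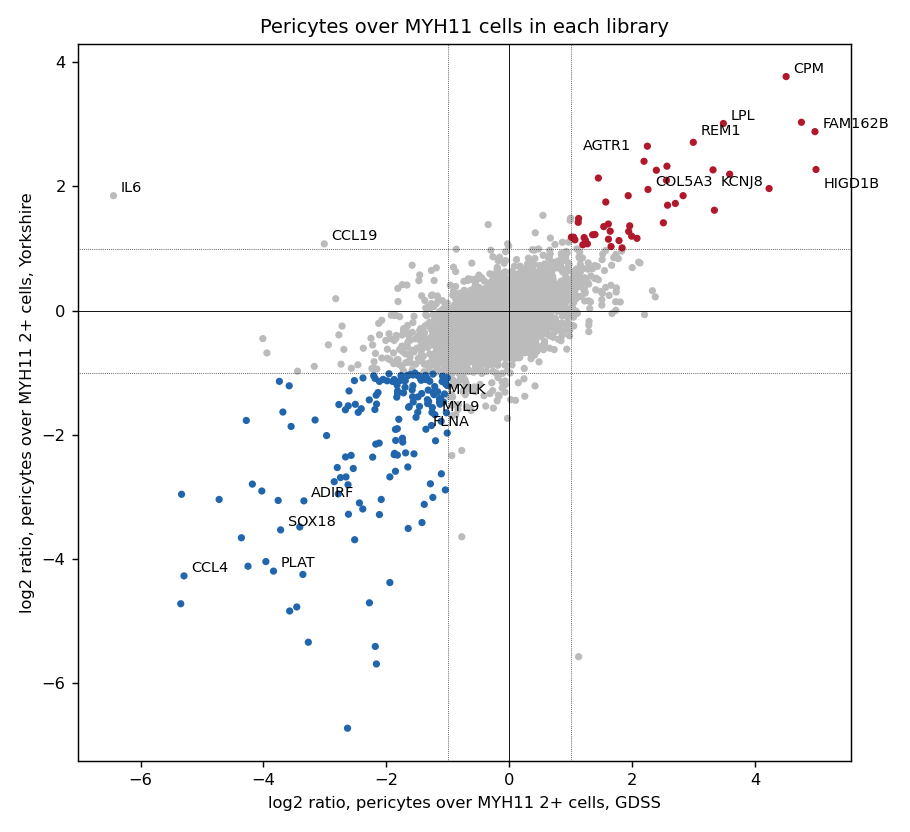
Log2 ratio of UPM in pericytes over MYH11 cells in Yorkshire (y axis) against GDSS (x axis), 1 point per measured gene, with called genes coloured and named genes labelled. The 45 higher genes include LPL and HIGD1B in the upper right, and the 158 lower genes include ADIRF in the lower left.

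Cells with RGS5 and an intermediate MYH11 count were then set between the populations. This grouping of cells that met all exclusions and had at least 2 RGS5 UMIs by 0, 1 or at least 2 MYH11 UMIs was chosen after the values were seen. Median depth was higher in each step, at 1627, 2570 and 3226 UMIs in GDSS and 2314.5, 2609.5 and 3181 in Yorkshire, and its part in the values was not tested. A total of 4 genes called higher and 4 contractile genes, picked with their values known, are given by step. The first step was the pericytes themselves and the last was a part of the MYH11 cells. For the called genes the direction between these steps was thus fixed in part by the earlier calls. LPL stood at 1359, 40.5 and 91.5 UPM across the steps in GDSS and 539.9, 63.7 and 53.5 in Yorkshire. The gene CPM stood at 335, 0 and 24.95 UPM in GDSS, where the 0 in the middle step allows up to 60.7, and 324, 29.4 and 23.4 in Yorkshire. HIGD1B stood at 397, 20.2 and 24.95 UPM in GDSS and 312, 83.3 and 114 in Yorkshire. KCNJ8 stood at 158, 20.2 and 16.6 UPM in GDSS and 115, 48.98 and 27.2 in Yorkshire. Of the contractile genes, ACTA2 stood at 3655, 3966 and 5448 UPM in GDSS and 3271, 4976 and 7702 in Yorkshire, ADIRF at 118, 1396 and 2371 in GDSS and 329.9, 1048 and 3446 in Yorkshire, and MYLK at 226, 283 and 674 in GDSS and 299, 544 and 905 in Yorkshire. MYL9 was higher in each step in Yorkshire, at 705, 1259 and 1998, while in GDSS, with 20 cells in the middle step, it stood at 807, 1862 and 1556.

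**Figure D3:**
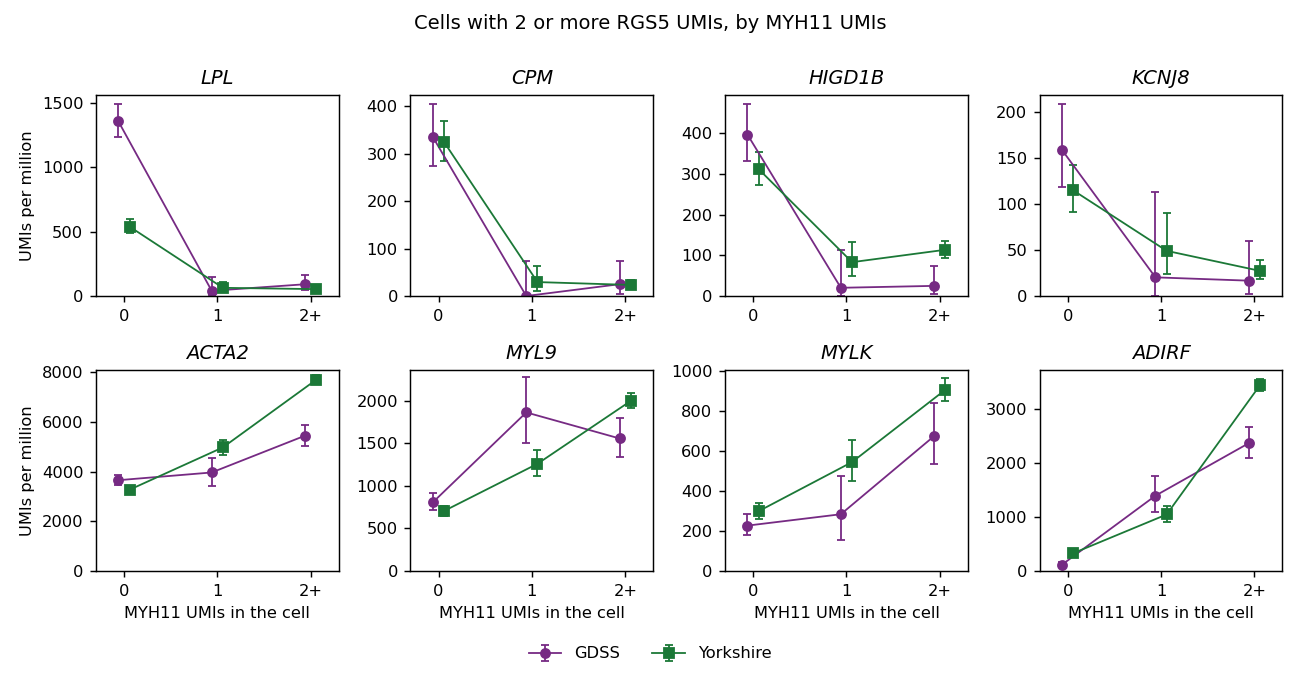
UPM (linear axis from 0) of 8 genes in RGS5 cells that met the exclusions, by 0, 1 or at least 2 MYH11 UMIs (x axis), with 95% Poisson intervals and 1 line per library. LPL, CPM, HIGD1B and KCNJ8 are lower at 1 and at least 2 MYH11 UMIs than at 0, and ADIRF and MYLK are higher. The cells at 0 are the pericytes, and those with at least 2 are a part of the MYH11 cells, from which these genes were called.

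Against all other cells, 349 of 3904 measured genes were higher in pericytes (8.94%) and 246 were lower (6.30%), with a median log2 ratio of 0.16. With edgeR's TMM factors the median moved to −0.15 and the split to 266 higher and 385 lower of 4311 measured. With median-of-ratios factors they moved to −0.10, 285 and 361 of 4238. Another scaling shifts every ratio within a library by the same amount, so the order of the genes in a library stays. HIGD1B stood at 397 and 312 UPM in pericytes and 2.48 and 4.74 in the others. NDUFA4L2 stood at 850.1 and 436 UPM in pericytes, against 12.2 and 8.39 in the others. RASD2, a Ras-like GTPase, stood at 68.3 and 104 UPM in pericytes, against 1.39 and 1.99 in the others. ADAP2, an ARF GTPase-activating protein, stood at 93.1 and 142 UPM in pericytes, against 2.29 and 3.06 in the others. P2RY14, the receptor for UDP-glucose, stood at 118 and 87.3 UPM in pericytes, against 2.09 and 2.41 in the others. ITIH4, best known as a plasma protein of liver, stood at 2541 and 4836 UPM in pericytes and 35.8 and 105 in the others, with 4390.4 and 7463 in MYH11 cells.

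A gene low in the other cells passed the minimum on the mean level mainly where pericytes were high, so the counts over measured genes describe those that passed and not the lists. At least 2-fold higher than in the other cells were 19 genes of the pericyte identity list, of 19 measured among 22 in the files. The same held for 18 contractile genes, of 20 measured among 27, and for 12 genes of ion channels and tone, of 12 measured among 24. TRPC6, a receptor-operated calcium channel, stood at 86.9 and 87.3 UPM in pericytes and 1.96 and 3.99 in the others. GJA4, a connexin of vascular gap junctions, stood at 909 and 659.9 UPM in pericytes, against 13.5 and 32.3 in the others. GJC1, another vascular connexin, stood at 195 and 279 UPM in pericytes, against 28.9 and 28.7 in the others. GUCY1B1, a subunit of the nitric oxide receptor guanylate cyclase, stood at 329 and 409 UPM in pericytes, against 28.3 and 21.4 in the others. PDE3A, which breaks down cyclic nucleotides, stood at 118 and 176 UPM in pericytes, against 26.3 and 15.8 in the others. Of 12 genes of G protein signalling measured among 33 in the files, 8 were higher and 1, CALCRL, was lower. EDNRB, which was higher, stood at 248 and 289 UPM in pericytes and 19.9 and 23.5 in the others. PTH1R, the parathyroid hormone receptor, was also higher, at 149 and 125 UPM in pericytes, against 21.4 and 11.9 in the others.

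Lists of signals between vessel cells were mixed against the other cells. Of 5 measured genes of the VEGF and angiopoietin list 2 were higher and 0 lower, with a median log2 ratio of 0.05. Of 7 measured genes of the PDGF and KIT ligand axis 3 were higher and 2 lower, with a median of −0.30. ANGPT1, the angiopoietin that activates the endothelial receptor TIE2, stood at 62.1 and 92.7 UPM in pericytes and 3.85 and 3.14 in the others. JAG1, a Notch ligand, stood at 164 and 99.5 UPM in pericytes, against 48.6 and 41.2 in the others. HEY1, a Notch target, stood at 164 and 168 UPM in pericytes, against 26.2 and 44.8 in the others. In the Notch list 4 of 8 measured genes were higher and 1 lower. Of 14 transcription factors measured among 27 in the files, 6 were higher and 1, KLF5, was lower. Over all genes measured, 8.94% were higher and 6.30% lower. FOXS1, a forkhead factor of perivascular cells, stood at 146 and 136 UPM in pericytes, against 12.7 and 15.3 in the others. TBX2, a T-box factor, stood at 86.9 and 157 UPM in pericytes, against 10.01 and 4.56 in the others. NR2F2, a nuclear receptor, stood at 496 and 419 UPM in pericytes, against 35.8 and 63.3 in the others. EBF1, an early B cell factor, stood at 248 and 204 UPM in pericytes, against 111 and 47.9 in the others. IGFBP7, a secreted protein of vascular basement membranes, stood at 6165 and 4573 UPM in pericytes and 1477 and 1208 in the others. ITGA7, a laminin receptor, stood at 695 and 530.3 UPM in pericytes, against 20.96 and 70.8 in the others.

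Interstitial matrix was lower, with 14 of 20 genes lower, 0 higher and a median of −3.27. COL1A1 stood at 155 and 274 UPM in pericytes and 9041 and 4079.9 in the others. The rule had set an upper limit on DCN and LUM, which mark the collagen-making cells, so the direction of this list was fixed in part by the choice of cells. Among the 15 cytokine and leukocyte adhesion genes measured, 0 were higher and 6 lower, including PTGS2, the inducible cyclooxygenase, at 3.103 and 2.73 UPM in pericytes, against 211 and 62.2 in the others. CXCL8, the neutrophil chemokine, stood at 12.4 and 1.36 UPM in pericytes, against 381 and 57.6 in the others. Of 18 immediate-early and stress genes 0 were higher and 4 lower, with HSPH1, a heat shock protein, at 462 and 391 UPM in pericytes, against 2013 and 1137 in the others. Of 6 tetraspanins 0 were called, with a median of 0.01. CD9, the tetraspanin in the title of the series, stood at 751 and 507 UPM in GDSS and Yorkshire pericytes, 763 and 561 in MYH11 cells and 314 and 502 in the others, and after thinning was found in 61.7% and 55.2% of pericytes.

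Among themselves, pericytes differed in ACTA2. At least 2 ACTA2 UMIs were found in 137 of the 167 GDSS cells (82.0%) and 216 of the 270 Yorkshire cells (80.0%), and 0 in 18 and 34. Median depth was 1657 UMIs in the GDSS cells with ACTA2 and 1362.5 in those without, and 2449 and 2032 in Yorkshire. Of 458 genes with enough UMIs, 4 were higher in the cells with ACTA2 in both libraries (0.873%) and 3 were lower (0.655%). The higher genes were ITIH4, FLNA, CAVIN1, for a coat protein of caveolae, and TPM2, for a tropomyosin of the contractile filament. TPM2 stood at 2290.5 UPM in GDSS pericytes with ACTA2 and 995 in those without, and at 2625 and 1310.4 UPM in Yorkshire. FLNA stood at 517 UPM in GDSS pericytes with ACTA2 and 209 in those without, and at 465 and 183 UPM in Yorkshire. ITIH4 stood at 2823 UPM in GDSS pericytes with ACTA2 and 681 in those without, and at 5358 and 1900.1 UPM in Yorkshire. The lower genes were the transcription factor gene ETS1, the heat shock gene HSPH1 and the early-response gene IER3. ETS1 stood at 238 UPM in GDSS pericytes with ACTA2 and 628 in those without, and at 156 and 393 UPM in Yorkshire. The cells without ACTA2 held only 38198 UMIs in GDSS and 76310 in Yorkshire. Genes short of 2-fold in either library were not called even where both counting intervals left out 1, as with TPM1, another tropomyosin gene, at 1.46-fold (1.07 to 2.05) in GDSS and 1.499-fold (1.18 to 1.93) in Yorkshire.

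A few pericytes held most of the UMIs of some genes. In Yorkshire, IL6 had 109 UMIs in 9 cells, 72 of them in 1 cell, and CCL19, a chemokine for CCR7 cells, had 209 UMIs in 20 cells with at most 39 in 1. Both genes were detected in 6 Yorkshire pericytes. In GDSS, IL6 had 1 UMI in 1 cell and CCL19 had 9 UMIs in 3 cells. IGFBP5 had 98 UMIs in 36 Yorkshire cells, with 15 in 1 cell and 54.1% in the 5 highest cells, and 17 UMIs in 15 GDSS cells. The skeletal actin gene ACTA1 had 101 UMIs in each library, with 50 in 1 GDSS cell and 22 in 1 Yorkshire cell. ADIRF had 38 UMIs in 18 GDSS cells, with 60.5% in the 5 highest cells. PLAU had 112 UMIs in 44 Yorkshire cells, with 50.9% in the 5 highest, and FABP5 had 341 in 96 GDSS cells, with 37.8%. Counting intervals do not cover such unevenness among cells.

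The comparison of breeds, GDSS over Yorkshire, was made within the pericytes. Of 2907 genes measured, 88 were higher in GDSS by at least 2-fold (3.03%) and 144 lower (4.95%), with a median log2 ratio of −0.03. The counting interval left out equality for 88 of the 88 and 141 of the 144 genes, and lay wholly beyond 2-fold for 21 and 16. With 1 library per breed these intervals carry no spread between animals. GDSS pericytes were also shallower, and the part of depth in the differences was not tested. When each cell was thinned to 1500 UMIs, fewer genes were measured, and of these 1305 genes 58 were higher and 89 lower.

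The chemokine CXCL12, which acts through CXCR4, was the highest gene, at 245.1 UPM in GDSS and 38.2 in Yorkshire pericytes, a ratio of 6.42-fold (4.13 to 10.3). In the other cells CXCL12 stood at 231 UPM in GDSS and 120.0 in Yorkshire. FABP5, a fatty acid binding protein, stood at 1058 UPM in GDSS and 244 in Yorkshire pericytes, a ratio of 4.34-fold (3.61 to 5.22). The other cells had the opposite order for FABP5, with 589 UPM in GDSS and 1731 in Yorkshire. LPL was also higher in GDSS pericytes, by 2.52-fold (2.19 to 2.89), and it was higher in the other cells of GDSS too. KLF2, a shear-responsive Krüppel-like factor, stood at 2606 UPM in GDSS and 779.8 in Yorkshire pericytes, a ratio of 3.34-fold (3.002 to 3.72), and at 1709.6 UPM in GDSS and 810.3 in Yorkshire in the other cells. ANXA1, an anti-inflammatory annexin, stood at 717 UPM in GDSS and 187 in Yorkshire pericytes and at 730.4 UPM in GDSS and 315 in Yorkshire in the other cells. PLAU, the urokinase plasminogen activator, stood at 456 UPM in GDSS and 153 in Yorkshire pericytes and at 413 UPM in GDSS and 118 in Yorkshire in the other cells. HOMER3, a scaffold protein, stood at 229.6 UPM in GDSS and 46.4 in Yorkshire pericytes and at 28.4 UPM in GDSS and 19.9 in Yorkshire in the other cells. ENPEP was 3.92-fold (2.56 to 6.09) higher and AGTR1 2.05-fold (1.503 to 2.79) higher in GDSS pericytes, and both were also higher in the other cells of GDSS. Of these genes, only FABP5 had the opposite order in the other cells. Of 18 immediate-early and stress genes 2 were called, and the median of the list was 0.69. ATF3, a stress-induced transcription factor, stood at 2215 UPM in GDSS and 989.8 in Yorkshire pericytes. KLF6, an early-response Krüppel-like factor, stood at 658 UPM in GDSS and 319 in Yorkshire pericytes.

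The genes lower in GDSS pericytes were led by IL6 and CCL19, which rest on the few cells given above. EDNRA, the endothelin A receptor that drives constriction, stood at 80.7 UPM in GDSS and 237 in Yorkshire pericytes, 2.94-fold (1.94 to 4.63) lower in GDSS, and at 128 UPM in GDSS and 250.1 in Yorkshire in MYH11 cells. GUCY1A1, the other subunit of the nitric oxide receptor, stood at 223 UPM in GDSS and 449 in Yorkshire pericytes, 2.01-fold (1.55 to 2.63) lower in GDSS. MEF2C, a myogenic transcription factor active in smooth muscle, stood at 171 UPM in GDSS and 342 in Yorkshire pericytes. SYNPO2, an actin-bundling protein, stood at 137 UPM in GDSS and 335 in Yorkshire pericytes. The sodium pump had 2 lower subunits. ATP1A4, a catalytic subunit, stood at 37.2 UPM in GDSS and 168 in Yorkshire pericytes, and ATP1B2, a beta subunit, at 62.1 UPM in GDSS and 146 in Yorkshire pericytes. ADIRF stood at 118 UPM in GDSS and 329.9 in Yorkshire pericytes, 2.798-fold (1.98 to 4.05) lower in GDSS, where 5 cells held most of the GDSS UMIs as given above. IGFBP5, a binding protein of insulin-like growth factors, stood at 52.7 UPM in GDSS and 134 in Yorkshire pericytes, where 5 cells held most of the Yorkshire UMIs as given above. IGFBP4, of the same family, stood at 21.7 UPM in GDSS and 68.2 in Yorkshire pericytes. Of 16 measured genes of the cytochrome oxidase and hypoxia list, 0 were higher in GDSS and 3 lower (COX7A1, HIF3A and PDK4), with a median log2 ratio of 0.03. COX7A1, a muscle-type cytochrome oxidase subunit, stood at 96.2 UPM in GDSS and 204 in Yorkshire pericytes. CS, citrate synthase, stood at 55.8 UPM in GDSS and 155 in Yorkshire pericytes. PDK4, which restrains glucose oxidation, stood at 83.8 UPM in GDSS and 207 in Yorkshire pericytes. Most of these genes were lower in the other cells of GDSS too, with EDNRA at 5.39 UPM in GDSS and 11.7 in Yorkshire, ADIRF at 6.51 UPM in GDSS and 96.5 in Yorkshire and PDK4 at 166 UPM in GDSS and 491 in Yorkshire in the other cells. GUCY1A1 was nearly level there, at 24.7 UPM in GDSS and 22.6 in Yorkshire, and IGFBP5 was higher in GDSS there, at 695 UPM in GDSS and 333 in Yorkshire.

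In the pericyte identity list 18 genes were measured between breeds, of which ENPEP was called higher and GUCY1A1 lower, with a median log2 ratio of 0.40. Of 19 contractile genes, 0 were higher and 3 lower (NEXN, ADIRF and SYNPO2), with a median of −0.22. In the PDGF, VEGF, TGF-beta, Notch, basement membrane and tetraspanin lists 0 genes were called, of 5, 5, 11, 9, 14 and 6 measured. Over all genes measured, 3.03% were higher and 4.95% lower, so 0 calls do not set lists of this size apart. Several differences between the breeds were smaller, mostly less than 2-fold, under another choice of cells. With cells of at least 1000 genes the log2 ratio of GDSS over Yorkshire was 0.39 for AGTR1, 0.79 for LPL, −0.60 for ADIRF, −0.65 for COX7A1, −0.70 for GUCY1A1 and −0.96 for NEXN. That of CXCL12 was 1.80, beside 2.68 with all cells. With at least 3 RGS5 UMIs the ratio was 0.92 for KLF6, −0.58 for IGFBP5 and −0.84 for MEF2C. HIGD1B, FHL5, NOTCH3, STEAP4 and COX4I2 were each less than 2-fold apart between the breeds.

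**Figure D4:**
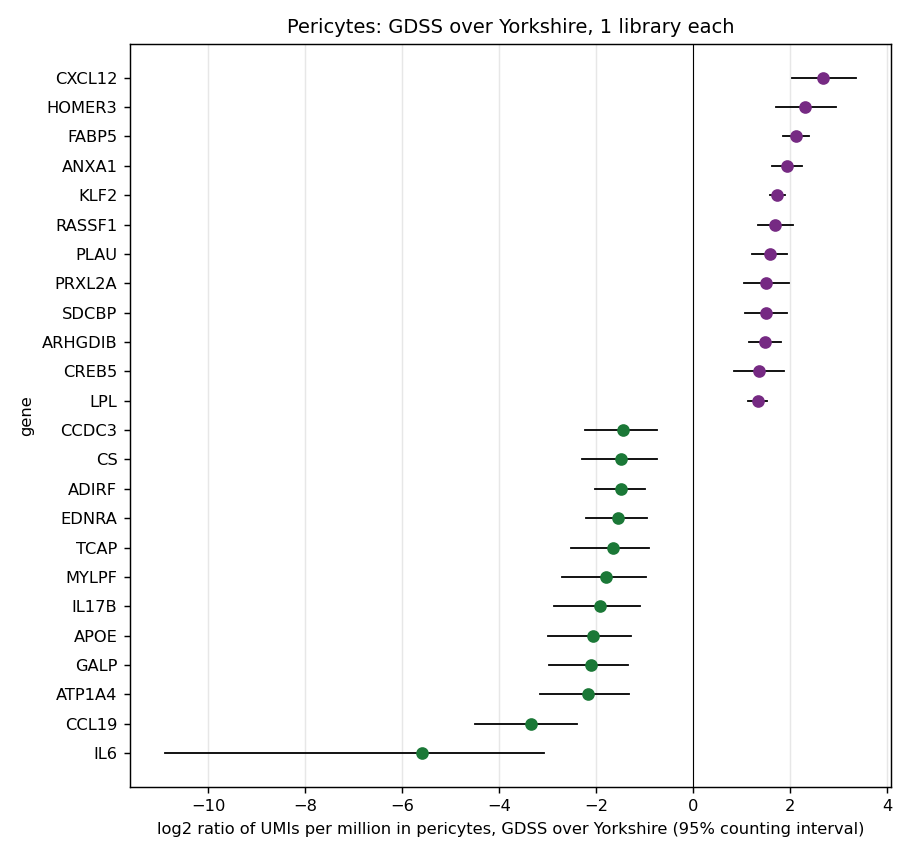
Log2 ratio of UPM, GDSS over Yorkshire, within pericytes for the 12 highest and 12 lowest genes of the naming rule, with 95% counting intervals. CXCL12, FABP5, KLF2 and LPL lie on the higher side and IL6, CCL19 and EDNRA on the lower side.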

How the data were processed

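For each breed the authors deposited 1 matrix of raw UMI counts, genes by barcodes. The submitters' processing notes name Cell Ranger and R 3.5.2. The file headers give software version 3.1.0. The labels name the 10x v2 kit. No genome build or annotation is given in the sources used here, and neither coordinates nor sequences are printed. Of 21301 features, 14846 carried a symbol and 680 more were given one from a table of Ensembl pig identifiers.

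Cells were chosen and set in classes by the stated rule, with no clustering and no doublet removal. The members, lists and genes were chosen with earlier results of these data known. Counts were summed per class and library and divided by the class total. Poisson, Clopper-Pearson and conditional binomial intervals are exact, at 95%, and cover counting error only. There was no replicate and no test. For a ratio, a class with 0 UMIs was given a floor of 3. The condition on the mean level (10 UMIs in the smaller sum) was set after the sums were seen. The calls from ratios and the intervals of ratios were tested on simulated data, and the lists and the thinning were not. The simulated sums were Poisson counts, which the intervals assume, so the coverage of the intervals there was fixed in advance. UMIs gathered in a few cells, as seen for IL6, were not simulated. The coverage for such genes is thus not known. The genes of the rule stayed out of counts and lists.

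Named genes were the rule genes and markers, and members of lists with at least 50 UMIs over the pericytes. All such members were taken for pericyte identity, contractile apparatus, ion channels and tone, G protein signalling, PDGF and KIT ligand axis, Notch pathway and transcription factors. From each other list up to 6 were taken. Added were the 20 highest against other cells, the 15 highest and lowest against MYH11 cells and the 12 highest and lowest between breeds. Genes named only as called members of a list, and those of the ACTA2 split, were picked after their values were seen. One gene that the rule names is not reported here. Python 3.11.15 with numpy 2.4.6, scipy 1.17.1, pandas 2.3.3, scanpy 1.11.5, anndata 0.12.19 and matplotlib 3.10.9 was used, and R 4.3.3 with edgeR 4.0.16 only for TMM factors. Alternatives changed the filters, the classes, thinning and the scaling.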

Additional observations from a re-analysis of the deposited data

Results flagged for a closer look

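IL6 and CCL19 pointed in opposite directions in the libraries. The log2 ratio of IL6 in pericytes over MYH11 cells was −6.44 in GDSS and 1.85 in Yorkshire, and over all other cells it was −4.32 in GDSS and 1.40 in Yorkshire. For CCL19 the ratio over MYH11 cells was −3.01 in GDSS and 1.07 in Yorkshire. IL6 rested on 1 UMI in the GDSS pericytes and on 9 cells in Yorkshire, 1 of which held 72 of 109 UMIs, and CCL19 on 3 and 20 cells. The differences between the libraries were not tested.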

How the results depend on the processing

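No paired analysis was possible because each breed had 1 library, and for the same reason no replicate could be left out. The share of pericytes in GDSS, 1.45%, was 1.03% with at least 3 RGS5 UMIs, 0.724% with at least 1000 genes, 1.21% with DCN and LUM below 5 per 10000 and 1.04% when the rule was applied to thinned cells. In Yorkshire, 1.89% became 1.62% with at most 10% mitochondrial UMIs and 1.65% with at least 3 RGS5 UMIs. The number of genes measured also changed with these choices. Against MYH11 cells, genes higher and lower numbered 23 and 67 of 2172 measured with at least 1000 genes per cell. They numbered 10 and 35 of 812 with at least 200 UMIs per gene, and 14 and 35 of 947 in thinned cells. There were 72 higher of 4125 with at least 10 UMIs per gene. With MYH11 cells held to the exclusions, 77 of 1786 were lower. Against all other cells they numbered 168 and 137 of 2063 with at least 1000 genes per cell. With no minimum on the mean level they numbered 910 and 588 of 11460, and with TMM factors 385 of 4311 were lower. Between breeds they numbered 21 and 18 of 648 with at least 200 UMIs per gene and 58 and 89 of 1305 in thinned cells. With at least 10 UMIs, 186 of 4107 were higher. With ACTA2 at least 5, 5 genes were lower where 3 had been.

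The median of the endothelial markers against other cells was 1.54 with at least 1000 genes per cell, resting on 1 gene, and that of the adhesion list −0.33 with no minimum on the mean level. HLA-DRA against MYH11 cells was 0.56 once these met the exclusions. The cause was not tested in these cases. Of the other values, 788 list medians and 4650 gene ratios kept their size within the interval, and 85 and 455 moved without a change of sign in a called value. The thinned gene ratios, the ratios without a minimum on the mean level and the added grouping by MYH11 UMIs were chosen after seeing the data. The pericytes' depth limits genes under about 50 UMIs.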
